A study of Arabidopsis thaliana with 9 samples.

Results

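Transcript levels were compared between Arabidopsis thaliana suspension cells kept 12 h without estrogen and the same cells at 0 h. The comparison gives the change over these 12 h of culture, with any handling of the cells at 0 h included. Both groups were cells of the line Alex, in the Col-O background, grown in the dark on a shaker. Both carried an estrogen-inducible construct for LHW and for T5L1 fused to GFP, a pair of basic helix-loop-helix transcription factors, and no group lacked it. The members were chosen by sample title and treatment label as 3 arrays of uninduced cells at 12 h and 3 arrays of cells at 0 h, 6 of the 9 arrays of the series, and arrays of the same replicate number were set against each other. The other 3 arrays came from cells given 5 µM estrogen for 12 h and served the estimate of the spread. The 0 h label reads as estrogen treatment of zero length, and the labels do not say whether the medium was changed or the cells diluted at 0 h. Whether the 3 replicates were grown as separate cultures is not given in the labels, so the p-values cover the spread among these arrays and no more, and that spread may be technical.

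Plant cells in suspension divide while nutrients last, and a batch culture passes from a lag phase through division and expansion into a stationary phase. Growing cells make ribosomes, RNA polymerases and nucleotides, copy DNA and loosen their walls with expansins and wall enzymes. Cells short of sugar or nitrogen instead break down amino acids, lipids and their own cytoplasm, the last by autophagy, in which ATG8 proteins coat the membrane that encloses the cargo.

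Each array gave log2 signals, of which 16722 of 38310 probe sets mapped to 1 gene. These stood for 16550 genes, by the probe set of highest mean per gene. Only 1805 of the genes had a symbol in the annotation used here, and 14745 had only a locus number, so the lists below hold a small share of each pathway. Over probe sets with 1 gene the array medians were 5.15, 5.18 and 5.36 in uninduced cells at 12 h, against 5.07, 5.07 and 5.40 at 0 h. The median log2 change over genes was 0.00, and it was 0.00, 0.01 and 0.00 in the 3 replicate pairs. Over all probe sets, most of them unnamed, the array medians were 5.83, 5.83 and 6.09 at 12 h, against 5.28, 5.40 and 5.67 at 0 h. In replicate 3 the 2 arrays held exactly equal values for 5407 probe sets with 1 gene (32.3%), against 82 in replicate 1 and 67 in replicate 2. A change of 0 in replicate 3 is therefore common, and results that rest on replicate 3 are named below. The median signal of 23 background rows, present on replicates 1 and 2, was 4.2, and a change that starts or ends under it has an uncertain size. LHW itself read 8.72, 8.60 and 8.14 in uninduced cells at 12 h, against 8.60, 8.71 and 8.22 at 0 h, and was not called (-0.03, SE 0.21, adjusted p = 0.930). T5L1 had no probe set of its own and was not analysed here.

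Large parts of the measured transcriptome moved within 12 h. Of 16550 genes, 3692 were called higher (22.3%) and 3187 lower (19.3%) at an adjusted p under 0.05 by limma. Extreme changes were mostly falls, since 71 genes fell and 14 rose by at least 16-fold. Of the called genes, 3667 were higher and 3165 lower in all 3 replicate pairs. In 3223 genes (19.5%) every array at 12 h was above every array at 0 h, and in 2774 genes (16.8%) every array at 12 h was below. Across genes, the changes of pair 1 correlated with those of pair 2 at r = 0.907 and with those of pair 3 at r = 0.869, and pairs 2 and 3 correlated at r = 0.850. These correlations are across genes, which are not independent replicates.

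**Figure D1:**
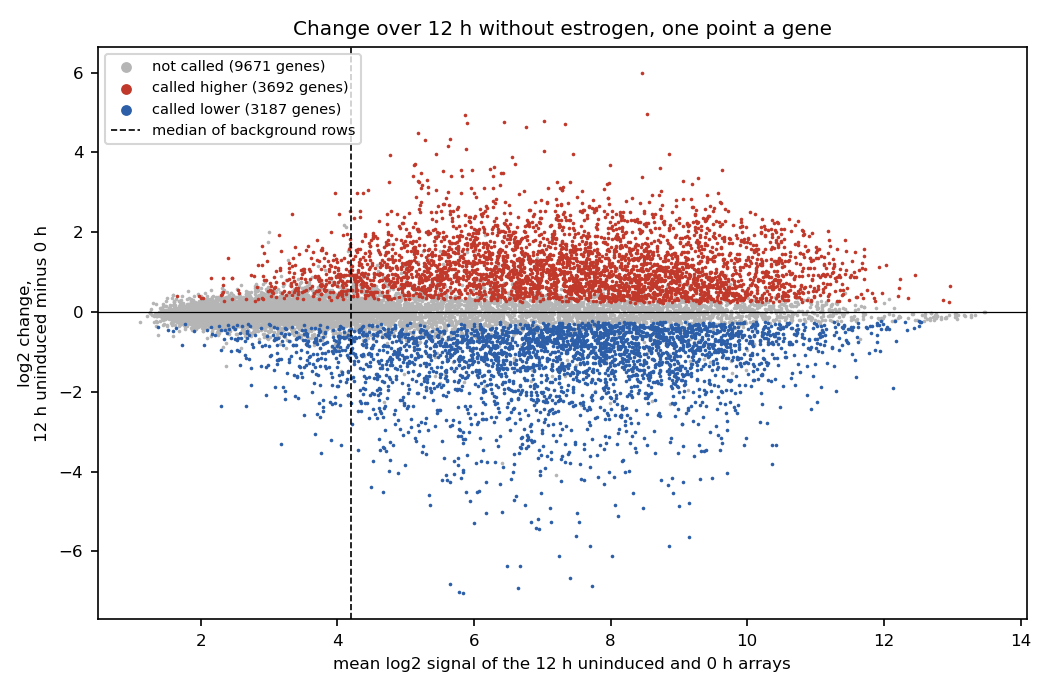
Log2 change (12 h uninduced minus 0 h) against the mean log2 signal of both groups, 1 point for each of 16550 genes, with genes called higher in red, genes called lower in blue and the others in grey. The dashed line marks the median of the background rows at 4.2, and calls lie mostly to its right, with falls reaching further from 0 than rises.

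Genes under the median of the background rows were rarely called. Of 6121 genes with both group means under that median, 130 were called higher and 150 lower. Of 9443 genes with both means at or over it, 3252 were called higher and 2704 lower. A further 496 genes passed from under it at 0 h to over it at 12 h, of which 310 were called, and 490 passed the other way, of which 333 were called. Only 3 genes rose from under it to a log2 signal of 8 or more, while 16 genes at 8 or more at 0 h were under it at 12 h.

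The share of rises among the calls depended on how the arrays were scaled, while few of the genes picked by the naming rule changed sign. As deposited, 53.6% of the calls among probe sets with 1 gene were rises. With quantile normalization this share was 33%, and with every array centred on the median of all probe sets it was 19.1%. These scalings moved the median change over genes to -0.18 and -0.47. Centring on the probe sets with 1 gene moved it to -0.05 and left 51.2% of calls as rises. Of 354 called genes that the naming rule picked, 2 changed sign with quantile normalization and 10 with centring on all probe sets. Most of these genes were picked for a large change or a small p, which favours a kept sign. Sign changes over all called genes were not counted. Since the unnamed probe sets shifted upwards while the genes did not, changes are given as deposited and read against the gene median of 0.00. Part of that upward shift came from probe sets with repeated profiles. Over all 38310 probe sets the median change was 0.12, with 12851 called higher and 6335 lower. With 1 probe set kept per profile, 32781 remained, the median was 0.04, and 9390 were called higher and 6341 lower. Centring on all probe sets takes the same amount from every gene. A list with a median a little above 0 therefore turns negative against 0 by construction and keeps its distance from the gene median. Counts on that scale, given below for many lists, show how far the calls depend on where 0 is set. Which of the scales is right was not tested. The shares to read each list's counts against are 22.3% called higher and 19.3% called lower over all genes.

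The machinery that makes ribosomal RNA, transfer RNA and ribosomes was higher after 12 h almost throughout. Of 19 measured genes, 18 were called higher and 0 lower, with a median change of 1.55, against 22.3% higher and a median of 0.00 over all genes. The median was 1.54, 1.28 and 1.43 in the 3 pairs. In bulk RNA a rise in each cell and a larger share of cells with the transcript cannot be told apart, here and below. TRM82, the non-catalytic subunit of a tRNA methyltransferase, read 8.81, 8.73 and 9.30 in uninduced cells at 12 h, against 6.14, 5.91 and 6.60 at 0 h, a rise of 2.73 (SE 0.08, adjusted p = 1.19e-05). YAO, a nucleolar WD40 protein, read 10.32, 10.35 and 10.90 in uninduced cells at 12 h, against 7.73, 7.76 and 8.18 at 0 h, a rise of 2.63 (SE 0.08, adjusted p = 1.22e-05). The lowest array at 12 h stood more than 2 log2 units above the highest at 0 h for both genes. AT3G09720, a DEAD-box RNA helicase, rose by 2.26 (SE 0.09) and AT5G14520, a pescadillo-like ribosome assembly factor, by 1.88 (SE 0.09). The large catalytic subunits of RNA polymerase I, which transcribes ribosomal RNA genes, rose as well, NRPA1 by 1.77 (SE 0.07) and NRPA2 by 1.90 (SE 0.08). NRPC2, of RNA polymerase III, rose by 1.85 (SE 0.08). Centred on all probe sets, 13 of the genes were called higher and 1 lower.

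The RNA polymerase that makes messenger RNA followed. All 13 measured subunits of RNA polymerases II, IV and V were called higher, with a median of 1.0, and 9 were called higher with the arrays centred on all probe sets, with 0 called lower. NRPB12 read 9.58, 9.73 and 10.46 in uninduced cells at 12 h, against 7.41, 7.52 and 8.0 at 0 h, a rise of 2.28 (SE 0.12, adjusted p = 3.49e-05). NRPB7 rose by 1.57 (SE 0.09), NRPB10 by 1.32 (SE 0.09) and NRPB3 by 1.03 (SE 0.11). The groups did not overlap in any of these 4 subunits. NRPE3B, of the plant-specific polymerase V, rose by 0.95 (SE 0.10) from a 0 h mean under the background rows' median, and its arrays overlapped between the groups, with replicate 3 higher in both. Among 9 subunits of the mediator, which links factors to RNA polymerase II, 3 were called higher and 1 lower. MED21 rose by 1.22 (SE 0.09) and MED9 by 0.86 (SE 0.09), while MED32 fell by 0.43 (SE 0.11). MED32 was not called with 1 array left out where that array was 12 h uninduced replicate 2, or 0 h replicate 1 or 2, and its change was -0.53 to -0.33 and its adjusted p 0.0140 to 0.0779 over all 9 such fits. The mediator counts were 2 higher and 3 lower with quantile normalization, and 2 and 4 with centring on all probe sets.

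Genes for splicing, nuclear export and decay of messenger RNA were called higher in 15 of 29 cases and lower in 0, with a median of 0.45 as deposited (-0.02 with centring on all probe sets, where the gene median is -0.47). XPO1B, an exportin that carries cargo out of the nucleus, read 9.84, 9.82 and 10.26 in uninduced cells at 12 h, against 7.78, 7.77 and 8.03 at 0 h, a rise of 2.11 (SE 0.08, adjusted p = 1.64e-05). Y14, of the exon junction complex, rose by 1.22 (SE 0.08), and MAC3A, a spliceosome-associated ubiquitin ligase, by 0.95 (SE 0.08). Of 6 genes for LSM ring proteins, 5 were called higher, with rises of 1.1 (SE 0.09) for LSM1A, which acts in decapping, 0.90 (SE 0.08) for LSM6A and 0.79 (SE 0.08) for LSM3A. LSM3B, the paralogue of LSM3A, was not called (-0.03, SE 0.07, adjusted p = 0.740). The rises named here were smaller than those of the ribosome assembly genes named above, apart from XPO1B.

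Translation and the trimming of new proteins showed a like pattern. Of 9 genes, 6 were called higher and 1 lower, with a median of 0.90. EIF4A-2, an RNA helicase of translation initiation, read 11.33, 11.42 and 12.00 in uninduced cells at 12 h, against 9.75, 9.69 and 10.30 at 0 h, a rise of 1.67 (SE 0.08, adjusted p = 2.97e-05). PGY1, a protein of the large ribosomal subunit, rose by 1.53 (SE 0.09). Of the 4 methionine aminopeptidases, which remove the first methionine, 3 were called higher. MAP1C rose by 1.53 (SE 0.09), MAP1A by 1.27 (SE 0.09) and MAP1D by 0.90 (SE 0.08), whereas MAP1B fell by 0.65 (SE 0.10).

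Chaperones moved less uniformly, with 5 of 16 called higher, 1 lower and a median of 0.12 as deposited (-0.34 with centring on all probe sets). With single arrays left out, 0 to 4 were called lower, 4 without 0 h replicate 3. The rises named here were in chaperones of plastids and in a cytosolic co-chaperone. Cpn60beta4, a plastid chaperonin subunit, read 8.92, 8.85 and 9.37 in uninduced cells at 12 h, against 6.36, 6.25 and 6.80 at 0 h, a rise of 2.57 (SE 0.09, adjusted p = 1.43e-05). HSP93-III, a plastid envelope chaperone, rose by 1.23 (SE 0.09) and Hop1, a co-chaperone of heat shock proteins, by 1.08 (SE 0.10). The median of the list was -0.10, 0.04 and 0.96 in pairs 1, 2 and 3, and pair 3 stood apart. HSA32, a heat-stress-associated protein, read 8.0, 7.84 and 7.48 in uninduced cells at 12 h, against 11.15, 11.16 and 7.92 at 0 h, so that the 0 h array of replicate 3 lacked the high level of the others. Its fall was 2.30 (SE 0.74, adjusted p = 0.0424). HSA32 was not called with 1 array left out where that array was 12 h uninduced replicate 1, 2 or 3, 12 h induced replicate 1 or 2, or 0 h replicate 1 or 2, and its change was -3.37 to -1.67 and its adjusted p 0.000505 to 0.162 over all 9 such fits.

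**Figure D2:**
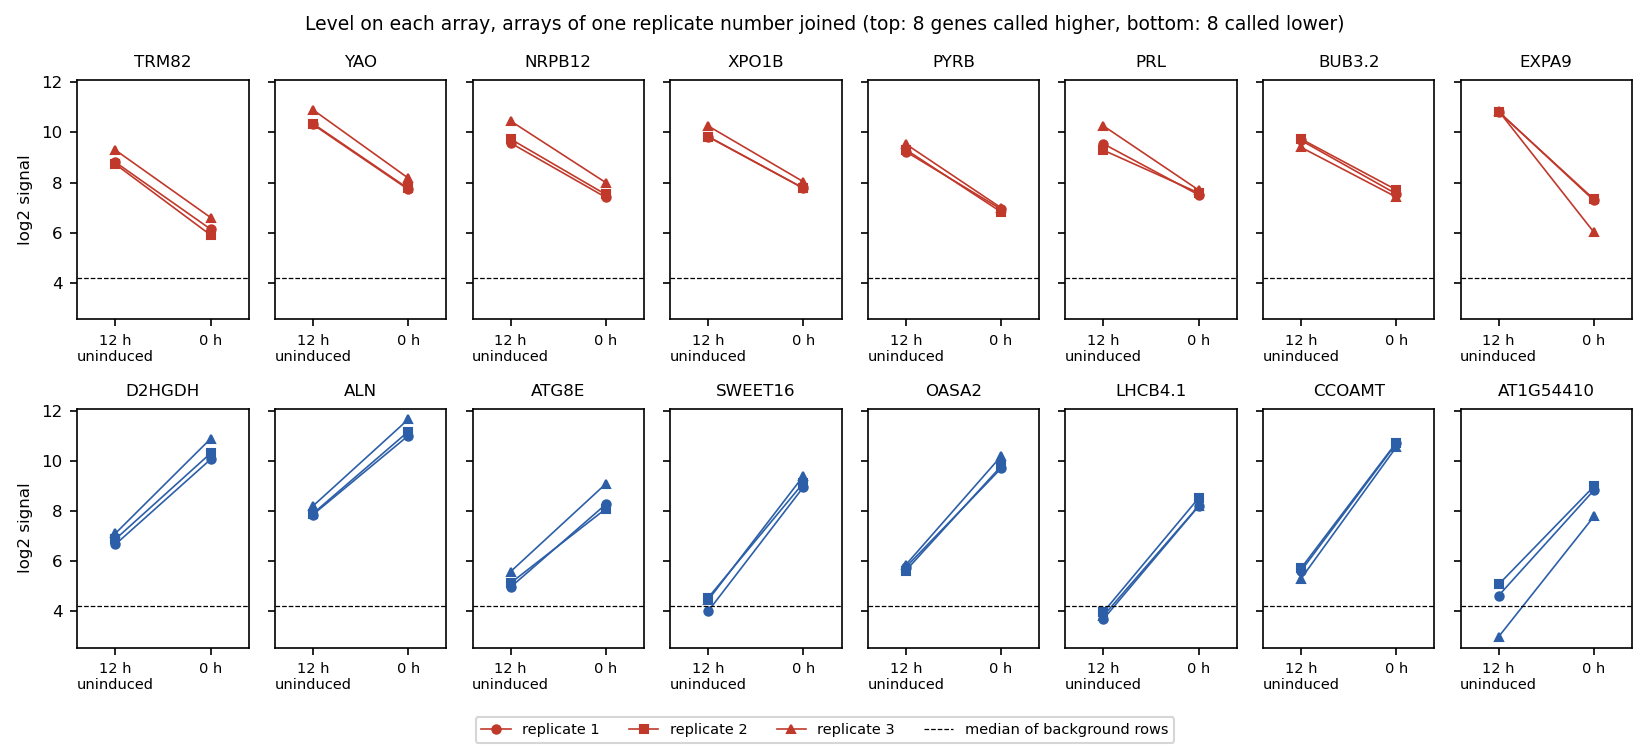
Log2 signal of 16 genes on each array, uninduced cells at 12 h on the left and cells at 0 h on the right of each panel, with arrays of the same replicate number joined and marked by symbol. The top row holds 8 genes called higher at 12 h, the bottom row 8 called lower, the dashed line is the median of the background rows, and in every panel all 3 lines run the same way with no overlap between the groups.

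Transcripts of nucleotide synthesis and salvage were higher. All 3 measured genes of the list were called higher, with a median of 2.44, also under each scaling. PYRB, aspartate carbamoyltransferase of pyrimidine synthesis, read 9.23, 9.32 and 9.54 in uninduced cells at 12 h, against 6.94, 6.83 and 6.99 at 0 h, a rise of 2.44 (SE 0.09, adjusted p = 1.66e-05). UPP, a uracil phosphoribosyltransferase of pyrimidine salvage, rose by 2.53 (SE 0.09), and HGPT, which salvages purines, by 0.87 (SE 0.10).

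DNA replication and chromatin assembly had 11 of 15 genes called higher and 3 lower, with a median of 0.97 and 0.96, 0.95 and 0.94 in the 3 pairs. PRL, the MCM7 subunit of the replicative helicase, read 9.54, 9.29 and 10.26 in uninduced cells at 12 h, against 7.51, 7.59 and 7.70 at 0 h, a rise of 2.1 (SE 0.16, adjusted p = 0.000121). POLA3, a primase subunit, rose by 1.32 (SE 0.12) and PSF2, of the GINS complex at the fork, by 1.02 (SE 0.09). The histone gene HTB1 rose by 1.24 (SE 0.08) and SGA2, a histone chaperone of the ASF1 family, by 0.97 (SE 0.08). The 3 falls were in a linker histone, a protein like it and an HMG-box protein. HON4, a linker-histone-like protein, read 10.35, 10.43 and 10.80 in uninduced cells at 12 h, against 11.61, 11.64 and 12.19 at 0 h, a fall of 1.28 (SE 0.09, adjusted p = 7.88e-05). HIS1-3, a linker histone known to respond to drought, fell by 1.67 (SE 0.18), to a level under the background rows' median, and 3xHMG-box1, an HMG-box protein that binds chromosomes, fell by 0.93 (SE 0.22). With centring on all probe sets, 8 genes were called higher and 4 lower.

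DNA repair genes were called higher in 11 of 19 cases and lower in 2, and 6 and 6 with centring on all probe sets. RAD9, of the checkpoint clamp, read 8.58, 8.50 and 8.67 in uninduced cells at 12 h, against 6.70, 6.68 and 6.84 at 0 h, a rise of 1.85 (SE 0.09, adjusted p = 2.83e-05). Rises followed for the helicases RECQSIM (1.74, SE 0.11) and FANCM (1.37, SE 0.08) and for BRCA2B (1.51, SE 0.09), which loads recombinases. The genes that fell act at lesions in other ways, REV7 (-0.88, SE 0.09) as a subunit of a translesion polymerase and RAD4 (-0.56, SE 0.10) in nucleotide excision repair. Among 15 chromatin remodellers, 9 were called higher and 1 lower, led by CHR24 (0.95, SE 0.08), ATRX (0.70, SE 0.07) and CHR17 (0.75, SE 0.09), with INO80 lower (-0.36, SE 0.09). INO80 was not called with 1 array left out where that array was 12 h uninduced replicate 1 or 2, or 0 h replicate 1 or 2, and its change was -0.43 to -0.32 and its adjusted p 0.00873 to 0.0663 over all 9 such fits. That list had 3 calls higher without the replicate block, 3 higher and 3 lower with quantile normalization, and 2 and 5 with centring on all probe sets.

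Genes of mitosis and of the division plane were called higher in 10 of 22 cases and lower in 3, with a median of 0.43 as deposited (-0.03 with centring on all probe sets). The spindle checkpoint genes BUB3.2 and BUB3.1 both rose. BUB3.2 read 9.68, 9.74 and 9.41 in uninduced cells at 12 h, against 7.55, 7.71 and 7.42 at 0 h, a rise of 2.05 (SE 0.08, adjusted p = 1.74e-05), and BUB3.1 rose by 1.72 (SE 0.09). The mitotic kinases Haspin (1.52, SE 0.08) and AUR3 (1.04, SE 0.08) rose too, as did TSK (0.90, SE 0.08), which is needed for ordered cell division in meristems. KEU, a Sec1 protein for vesicle fusion at the cell plate, read 9.13, 8.95 and 9.34 in uninduced cells at 12 h, against 10.15, 10.23 and 10.48 at 0 h, a fall of 1.15 (SE 0.08, adjusted p = 0.000101). KINESIN-13A fell by 0.64 (SE 0.12). Of 9 tubulins and actins, 5 were called higher and 1 lower, the largest rise outside replicate overlap being TUB7 with 6.96, 7.16 and 7.06 against 6.0, 5.92 and 5.57 (12 h uninduced against 0 h).

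Respiration and organelle gene expression held both directions. The mitochondrial flavoprotein subunits of succinate dehydrogenase rose, SDH1-2 with 9.32, 9.28 and 8.95 in uninduced cells at 12 h, against 6.82, 6.79 and 6.53 at 0 h, a rise of 2.47 (SE 0.07, adjusted p = 1.2e-05), and SDH1-1 by 1.36 (SE 0.08). IDH-VI and IDH-V, of mitochondrial isocitrate dehydrogenase, rose by 2.1 (SE 0.10) and 0.64 (SE 0.16). IDH-V was not called with 1 array left out where that array was 12 h uninduced replicate 2 or 3, and its change was 0.43 to 0.78 and its adjusted p 0.0142 to 0.0742 over all 9 such fits. The iron-sulfur subunit SDH2-2 instead fell by 0.29 (SE 0.09). SDH2-2 was not called with 1 array left out where that array was 12 h uninduced replicate 1, 2 or 3, 12 h induced replicate 1 or 3, or 0 h replicate 1, 2 or 3, and its change was -0.32 to -0.24 and its adjusted p 0.0406 to 0.147 over all 9 such fits. Over the 10 genes of both enzymes, 4 were called higher and 1 lower, and 3 and 5 with centring on all probe sets. NDB2, an external NAD(P)H dehydrogenase that bypasses complex I, read 10.47, 10.51 and 10.31 in uninduced cells at 12 h, against 9.08, 9.14 and 8.22 at 0 h, a rise of 1.62 (SE 0.19). In the list of glycolysis genes 3 of 4 were called higher. The cytosolic triosephosphate isomerase TPI rose by 1.34 (SE 0.08) and the enolase ENOC by 0.54 (SE 0.11). PGM, listed there by its symbol, which in Arabidopsis names a phosphoglucomutase, rose by 1.33 (SE 0.13). PPDK, pyruvate orthophosphate dikinase, ran the other way with 5.91, 5.91 and 6.26 in uninduced cells at 12 h, against 10.81, 10.92 and 11.06 at 0 h, a fall of 4.91 (SE 0.11, adjusted p = 8.4e-06). ATP-citrate lyase, which makes cytosolic acetyl-CoA, held falls of 2.29 (SE 0.08) in ACLA-3 and 0.99 (SE 0.08) in ACLB-1 among 4 genes, with 1 called higher. ACLA-3 read 7.62, 7.56 and 8.07 in uninduced cells at 12 h, against 9.87, 9.91 and 10.34 at 0 h. ACLA-2 rose by 0.42 (SE 0.11). ACLA-2 was not called with 1 array left out where that array was 12 h uninduced replicate 1 or 3, or 0 h replicate 1, and its change was 0.33 to 0.51 and its adjusted p 0.0132 to 0.0821 over all 9 such fits.

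Nuclear genes for organelle RNA processing rose. Of 14 pentatricopeptide repeat proteins, which bind and edit organelle transcripts, 11 were called higher and 0 lower, with a median of 1.01 and 9 called higher with centring on all probe sets. PPR336 read 8.74, 8.81 and 9.43 in uninduced cells at 12 h, against 7.24, 7.2 and 7.62 at 0 h, a rise of 1.64 (SE 0.10, adjusted p = 5.97e-05). PPR596 rose by 2.46 (SE 0.08) and the editing factors OTP86 and OTP87 by 1.43 (SE 0.13) and 1.15 (SE 0.14). The transcripts encoded in the organelles had medians slightly below 0. Among 63 plastid-encoded genes the median was -0.14, and it was -0.17, -0.14 and -0.10 in the 3 pairs. Among 17 mitochondria-encoded genes it was -0.15, and -0.18, -0.15 and -0.12 in the pairs. The largest called plastid fall was in psbT, of photosystem II, with 7.57, 7.49 and 7.69 in uninduced cells at 12 h, against 8.80, 8.88 and 8.53 at 0 h (-1.15, SE 0.18, adjusted p = 0.00225). The photosystem II genes psbB and psbH fell by 0.74 (SE 0.07) and 0.76 (SE 0.08), and rps16, a ribosomal protein gene, rose by 0.59 (SE 0.09). The number of plastid genes called lower was 20 of 63 with the replicate block, 5 without it and 13 in replicates 1 and 2 alone, and it was 13 without any 1 of the 3 uninduced arrays at 12 h.

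**Figure D3:**
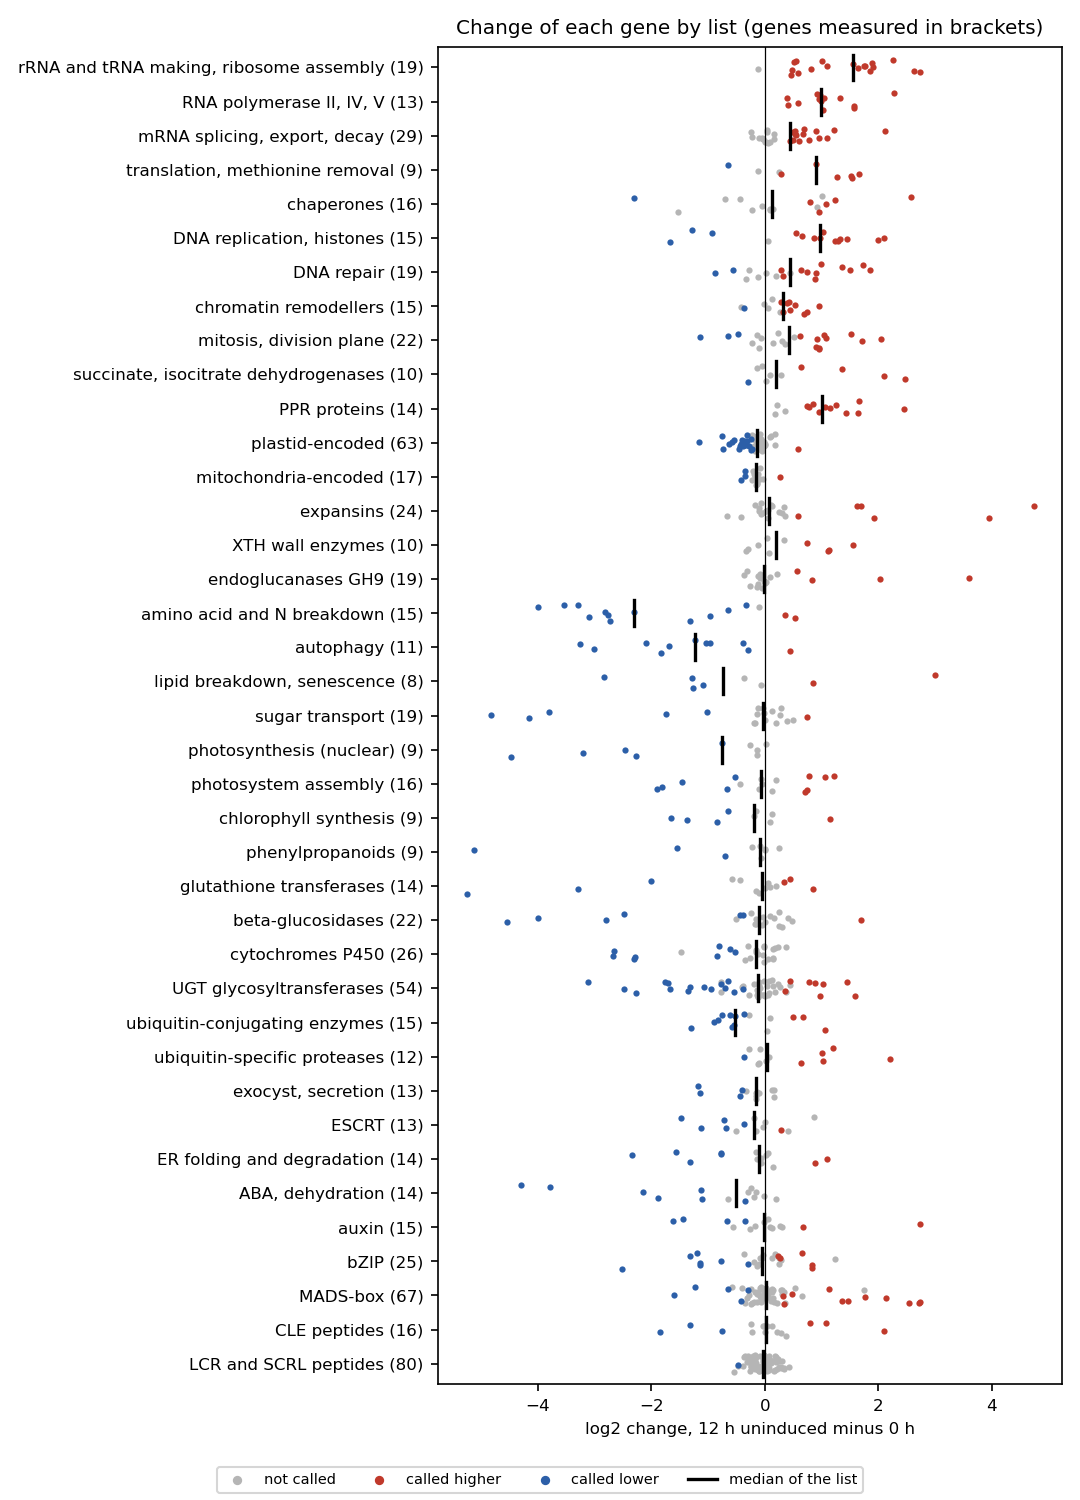
Log2 change (12 h uninduced minus 0 h) of every measured gene in 39 lists, genes called higher in red, called lower in blue and not called in grey, with the black bar at the list's median and the number of genes in brackets. Lists of RNA and ribosome making lie to the right of 0 and amino acid breakdown and autophagy to the left, while expansins, sugar transport and special metabolism hold a few large changes among many genes near 0. With centring on all probe sets the medians of mRNA splicing, chaperones, DNA repair, chromatin remodellers, mitosis, the succinate and isocitrate dehydrogenases, expansins, XTH enzymes and MADS-box factors turn negative, as every gene is lowered alike.

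A few wall loosening genes rose steeply, while the expansin and endoglucanase families were called higher at about the share of all genes. Of 24 expansins, which loosen walls as cells enlarge, 6 were called higher and 0 lower, against 22.3% and 19.3% over all genes. EXPA9 read 10.83, 10.81 and 10.85 in uninduced cells at 12 h, against 7.29, 7.33 and 6.02 at 0 h, a rise of 3.95 (SE 0.29, adjusted p = 0.000107), 15.5-fold. EXPA8 rose by 1.93 (SE 0.23) and EXPA4, from under the background rows' median, by 1.69 (SE 0.31). Replicate 3 stood apart in these genes, since the 0 h array of EXPA9 was lowest there and EXPA4 at 12 h was 6.51, 6.39 and 4.72. GH9C2, an endoglucanase, read 10.74, 10.66 and 10.18 in uninduced cells at 12 h, against 7.19, 6.51 and 7.05 at 0 h, a rise of 3.61 (SE 0.25, adjusted p = 8.28e-05), and GH9A3 rose by 2.03 (SE 0.12). They were among 4 of 19 endoglucanases called higher, with 0 lower. XTH33, of the enzymes that cut and rejoin xyloglucan, rose by 1.12 (SE 0.16). Of 10 genes for these enzymes, 4 were called higher and 0 lower, and 2 and 4 with centring on all probe sets. With centring on all probe sets 13 expansins and 10 endoglucanases were called lower, against 5 and 2 higher, and the members named here kept their direction.

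Genes that build wall polysaccharides held changes both ways, 5 higher and 3 lower of 34, with 4 and 9 after quantile normalization and 4 and 19 with centring on all probe sets. Over all genes the shares were 22.3% and 19.3%, and without 0 h replicate 3 the number called higher was 10. CSLC04, a glucan synthase for the xyloglucan backbone, read 4.76, 5.13 and 6.66 in uninduced cells at 12 h, against 8.33, 8.30 and 8.82 at 0 h, a fall of 2.96 (SE 0.28, adjusted p = 0.000273), while its relative CSLC5 rose by 0.92 (SE 0.16). TBL26 and TBL37, of the family of wall acetyltransferases, rose by 1.5 (SE 0.09) and 1.05 (SE 0.09). Among IQ-domain proteins, calmodulin-binding scaffolds at the cytoskeleton, 7 of 17 were called higher and 1 lower, 4 and 5 after quantile normalization, and 3 and 9 with centring on all probe sets. IQD24 read 6.43, 6.40 and 6.06 in uninduced cells at 12 h, against 4.28, 4.21 and 4.41 at 0 h, a rise of 1.99 (SE 0.14), and IQD22 rose by 1.86 (SE 0.16).

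Breakdown of amino acids and of nitrogen stores was lower after 12 h. Of 15 measured genes, 12 were called lower and 2 higher, against 19.3% lower over all genes, with a median of -2.31 and -2.41, -2.18 and -2.34 in the 3 pairs. ALN, allantoinase, which degrades the purine product allantoin, read 7.86, 7.90 and 8.20 in uninduced cells at 12 h, against 11.01, 11.17 and 11.66 at 0 h, a fall of 3.29 (SE 0.10, adjusted p = 1.2e-05). D2HGDH, which passes electrons from 2-hydroxyglutarate to the respiratory chain, read 6.67, 6.88 and 7.11 in uninduced cells at 12 h, against 10.06, 10.31 and 10.88 at 0 h, a fall of 3.53 (SE 0.12, adjusted p = 1.39e-05). AT4G33150, which starts lysine breakdown, read 7.71, 7.77 and 8.61 in uninduced cells at 12 h, against 10.71, 10.91 and 11.74 at 0 h, a fall of 3.09 (SE 0.08, adjusted p = 1e-05). In all 3 genes each array at 12 h was below each array at 0 h by more than 2 log2 units. ETFQO, which hands those electrons to ubiquinone, fell by 2.76 (SE 0.10), ALDH6B2, of valine breakdown, by 2.72 (SE 0.08) and DELTA-OAT, ornithine aminotransferase, by 2.31 (SE 0.08). The exceptions were rises of 0.53 (SE 0.08) in LCD, L-cysteine desulfhydrase, and 0.36 (SE 0.08) in UGLYAH, which acts late in ureide breakdown. UGLYAH was not called with 1 array left out where that array was 12 h uninduced replicate 1, and its change was 0.33 to 0.39 and its adjusted p 0.0174 to 0.0556 over all 9 such fits.

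Measured autophagy genes, most of them of the ATG8 family, were lower with 1 exception. Of 11 measured genes, 10 were called lower and 1 higher, with a median of -1.23, and 8 to 10 were called lower with any 1 array left out. Apart from ATG3 (-0.96) and AT5G66930 (-1.03), all were ATG8 family members. The counts therefore describe that family more than autophagy as a whole. ATG8E read 4.96, 5.13 and 5.58 in uninduced cells at 12 h, against 8.27, 8.09 and 9.09 at 0 h, a fall of 3.26 (SE 0.12, adjusted p = 1.65e-05), 9.57-fold. ATG8H fell by 3.01 (SE 0.17), to a mean under the background rows' median, and ATG8F, whose level was further from background, read 10.02, 9.93 and 9.51 in uninduced cells at 12 h, against 11.86, 11.90 and 11.98 at 0 h, a fall of 2.09 (SE 0.14). APG8A (AT4G21980) and APG8H (AT3G15580), of the same family of membrane-coating proteins, fell by 1.82 (SE 0.14) and 1.69 (SE 0.08). ATG8G rose by 0.45 (SE 0.13, adjusted p = 0.0296), with 7.73, 7.72 and 7.74 against 7.12, 7.05 and 7.66 (12 h uninduced against 0 h), where replicate 3 changed least. ATG8G was not called with 1 array left out where that array was 12 h uninduced replicate 1 or 2, 12 h induced replicate 1, 2 or 3, or 0 h replicate 1 or 2, and its change was 0.36 to 0.60 and its adjusted p 0.00681 to 0.120 over all 9 such fits.

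Reserve lipids and vacuolar proteolysis showed falls and a few rises. SDP1, the triacylglycerol lipase of oil bodies, read 6.66, 6.51 and 7.23 in uninduced cells at 12 h, against 9.17, 9.39 and 10.34 at 0 h, a fall of 2.83 (SE 0.14, adjusted p = 3.16e-05), whereas SDP1-LIKE rose by 0.84 (SE 0.13). AIM1, of peroxisomal beta-oxidation, and PAHX, phytanoyl-CoA hydroxylase, fell by 1.26 (SE 0.07) and 1.28 (SE 0.08). SAG29, a sugar exporter also named SWEET15 and known from senescence, rose from a 0 h mean under the background rows' median by 3.0 (SE 0.37, adjusted p = 0.000764), with 7.46, 7.61 and 6.31 against 4.49, 3.61 and 4.27 (12 h uninduced against 0 h). The vacuolar aspartic proteinase APA1 fell by 1.99 (SE 0.09) and the processing enzyme GAMMA-VPE by 1.72 (SE 0.12). GAMMA-VPE is known to cleave vacuolar proteins in vegetative tissue.

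Sugar and starch genes with large changes were mostly lower. SWEET16, a vacuolar sugar carrier, read 4.01, 4.54 and 4.45 in uninduced cells at 12 h, against 8.96, 9.13 and 9.40 at 0 h, a fall of 4.83 (SE 0.27, adjusted p = 4.47e-05). SWEET2, also vacuolar, fell by 4.16 (SE 0.30), to a mean under the background rows' median, and SFP1, of the sugar porter family, by 3.80 (SE 0.18). The tonoplast transporters TMT1 and TMT2 moved apart, TMT1 with a fall of 1.01 (SE 0.18) and TMT2 with a rise of 0.74 (SE 0.08). Over 19 sugar transport genes, 5 were called lower and 1 higher, against 19.3% lower and 22.3% higher over all genes. The median of these 19 was -0.04, and 13 of them had both means under the background rows' median. Of 6 starch genes, 2 were called lower and 1 higher, with a median of 0.12. QQS, a small protein that affects starch content, read 8.67, 8.69 and 8.43 in uninduced cells at 12 h, against 10.92, 11.13 and 11.13 at 0 h, a fall of 2.46 (SE 0.12, adjusted p = 2.71e-05). AMY1, a secreted alpha-amylase, fell by 2.85 (SE 0.27) to under the background rows' median, and APL3, a subunit of the enzyme that makes ADP-glucose for starch, rose by 1.23 (SE 0.13).

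Sulfate assimilation was split. OASA2, of the O-acetylserine (thiol)lyase family that makes cysteine, read 5.76, 5.63 and 5.86 in uninduced cells at 12 h, against 9.70, 9.79 and 10.19 at 0 h, a fall of 4.14 (SE 0.13, adjusted p = 1.22e-05), 17.7-fold. APS4, an ATP sulfurylase, fell by 2.69 (SE 0.10), while the isoform APS3 rose by 0.84 (SE 0.14) and SIR, sulfite reductase, by 0.79 (SE 0.08). Each of the 4 measured genes was called.

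Of 9 nuclear photosynthesis genes measured in these dark-grown cells, 5 were called lower at 12 h, 0 higher and 4 were not called, against 19.3% lower over all genes. LHCB4.1, an antenna protein of photosystem II, read 3.69, 3.97 and 3.82 in uninduced cells at 12 h, against 8.20, 8.52 and 8.21 at 0 h, a fall of 4.48 (SE 0.11, adjusted p = 1e-05), which ended under the background rows' median. LHCB4.2 fell by 2.46 (SE 0.08) and PSAN, of photosystem I, by 2.27 (SE 0.23), with 12 h means near or under that median. In chlorophyll synthesis 4 of 9 genes were called lower and 1 higher, with falls in HEME2 (-1.37, SE 0.13) and CHLM (-1.64, SE 0.18) and a rise in HEMA3 (1.14, SE 0.25) from under the background rows' median. Assembly factors of the photosystems moved both ways, 5 higher and 5 lower of 16, and with centring on all probe sets 2 higher and 9 lower. Among them HCF101, which inserts iron-sulfur clusters, rose by 1.23 (SE 0.14), and PAM68, of photosystem II assembly, fell by 1.89 (SE 0.18).

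Special metabolism and detoxification held some of the steepest named falls. CCOAMT, a caffeoyl-CoA O-methyltransferase of the lignin pathway, read 5.61, 5.72 and 5.3 in uninduced cells at 12 h, against 10.70, 10.73 and 10.55 at 0 h, a fall of 5.11 (SE 0.13, adjusted p = 1e-05), 34.6-fold. GSTF3, a glutathione transferase, read 4.47, 4.18 and 4.0 in uninduced cells at 12 h, against 9.66, 9.43 and 9.31 at 0 h, a fall of 5.25 (SE 0.20, adjusted p = 1.66e-05). BGLU46, a beta-glucosidase that acts on lignin precursors, read 4.11, 4.53 and 5.51 in uninduced cells at 12 h, against 8.81, 8.93 and 10.04 at 0 h, a fall of 4.54 (SE 0.10, adjusted p = 8.4e-06). The groups stood more than 3 log2 units apart in each of the 3 genes, and the GSTF3 mean at 12 h was close to the background rows' median. CCR2, cinnamoyl-CoA reductase, and HCT, both of the lignin pathway, fell by 1.55 (SE 0.17) and 0.71 (SE 0.16). HCT was not called with 1 array left out where that array was 12 h uninduced replicate 1 or 2, and its change was -0.83 to -0.59 and its adjusted p 0.00281 to 0.0574 over all 9 such fits. GSTU26 and GSTL3 fell by 3.29 (SE 0.14) and 2.0 (SE 0.09), and the beta-glucosidases BGLU21 and BGLU22 by 3.99 (SE 0.17) and 2.80 (SE 0.17), while BGLU42 rose by 1.69 (SE 0.10).

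Over the families, calls went both ways, against 19.3% lower and 22.3% higher over all genes. Of 26 cytochromes P450, 8 were called lower and 0 higher, with 5 lower without 12 h uninduced replicate 1 or 2. Of 22 beta-glucosidases, 6 were lower and 1 higher, and of 54 UGT glycosyltransferases, which attach sugars to small molecules, 15 were lower and 8 higher, with 5 higher without 12 h uninduced replicate 1 or 12 h induced replicate 1. UGT73B5 read 3.87, 3.89 and 4.87 in uninduced cells at 12 h, against 7.17, 7.45 and 7.37 at 0 h, a fall of 3.12 (SE 0.21), and UGT74D1 rose by 1.59 (SE 0.12). Glutathione transferases had 3 called higher and 3 lower of 14, with 0 higher in replicates 1 and 2 alone, and 0 or 1 without 12 h uninduced replicate 1 or 3 or any 1 of the 0 h arrays. Peroxide-removing enzymes of the plastid moved apart, since SAPX of the stroma rose by 1.85 (SE 0.09) and TAPX of the thylakoid fell by 1.45 (SE 0.21). GR1, glutathione reductase, rose by 1.03 (SE 0.11).

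Genes of protein turnover and membrane traffic moved both ways. Of 15 ubiquitin-conjugating enzymes, 9 were called lower and 3 higher, against 19.3% and 22.3% over all genes, with a median of -0.53. UBC16 read 7.86, 7.71 and 7.76 in uninduced cells at 12 h, against 9.07, 9.10 and 9.05 at 0 h, a fall of 1.29 (SE 0.08), and UBC32, which acts in degradation of proteins from the endoplasmic reticulum, fell by 0.90 (SE 0.08). UBC37 rose by 1.06 (SE 0.12). Of 12 enzymes that remove ubiquitin, 5 were called higher and 1 lower, 5 and 5 after quantile normalization, and 4 and 7 with centring on all probe sets. UBP21 led them with 9.60, 9.43 and 9.74 in uninduced cells at 12 h, against 7.28, 7.23 and 7.64 at 0 h, a rise of 2.21 (SE 0.09, adjusted p = 1.81e-05). In the degradation route of the endoplasmic reticulum DER2.1, a derlin, read 8.50, 8.63 and 8.94 in uninduced cells at 12 h, against 10.87, 11.03 and 11.18 at 0 h, a fall of 2.33 (SE 0.08, adjusted p = 1.5e-05), and DER1 fell by 1.57 (SE 0.15). BZIP28, a membrane-bound factor of the unfolded protein response, fell by 1.32 (SE 0.12), while the chaperones CRT1b and BIP1 rose by 1.1 (SE 0.16) and 0.88 (SE 0.21). BIP1 was not called with 1 array left out where that array was 12 h uninduced replicate 1 or 2, or 0 h replicate 1 or 2, and its change was 0.73 to 1.16 and its adjusted p 0.000646 to 0.0582 over all 9 such fits. Of the exocyst and secretion genes, 4 of 13 were called lower and 0 higher, with a fall of 1.17 (SE 0.09) in SEC5A. Of the ESCRT genes, which sort membrane proteins for the vacuole, 5 of 13 were called lower and 1 higher, with a fall of 1.47 (SE 0.18) in SNF7.1, and 3 were called lower without 12 h uninduced replicate 1. Both counts lie within a few genes of the 19.3% called lower over all genes.

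In the list of abscisic acid and dehydration genes, 7 of 14 were called lower, 0 higher and 7 were not called, against 19.3% lower over all genes, with a median of -0.50 and -0.87, -0.60 and -0.23 in the 3 pairs, smallest in pair 3. AT1G54410, a dehydrin, read 4.63, 5.07 and 2.99 in uninduced cells at 12 h, against 8.83, 8.98 and 7.78 at 0 h, a fall of 4.30 (SE 0.26, adjusted p = 5.42e-05). COR27, a cold-regulated gene, fell by 3.79 (SE 0.38) and COR47, a dehydrin, by 2.14 (SE 0.27). LTI30 fell by 1.88 (SE 0.17) at levels near or under the background rows' median. RD2 fell by 1.1 (SE 0.10).

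Gibberellin receptors and ethylene regulators were lower too. All 4 measured genes of the gibberellin and brassinosteroid list fell, the receptors GID1A by 1.07 (SE 0.10), GID1B by 1.48 (SE 0.19) and GID1C by 1.41 (SE 0.14), and BRH1, a brassinosteroid-responsive RING protein, by 1.72 (SE 0.09). GID1B read 8.30, 8.31 and 7.62 in uninduced cells at 12 h, against 9.52, 9.48 and 9.69 at 0 h. Of the ethylene list all 3 were lower, RTE1, which acts on the receptor ETR1, by 1.15 (SE 0.10) and the factor EIN3 by 0.38 (SE 0.08). For cytokinin 1 of 8 genes was called, the response regulator RR21, which rose by 1.3 (SE 0.18), while 1 was higher and 4 lower with centring on all probe sets. Of 15 auxin genes, 2 were called higher and 4 lower, and without the replicate block 2 and 0. Without 12 h uninduced replicate 1 or 2, or 0 h replicate 1 or 2, 2 auxin genes were called lower.

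Among transcription factors, the iron-homeostasis regulators bHLH121 and bHLH104 were lower. bHLH121 read 9.47, 9.48 and 9.72 in uninduced cells at 12 h, against 11.18, 11.20 and 11.35 at 0 h, a fall of 1.68 (SE 0.07, adjusted p = 2.26e-05), and bHLH104 fell by 1.24 (SE 0.21). They were the 2 called of 10 factors of that family, about the 19.3% called lower over all genes. WRKY29 read 8.44, 8.60 and 8.84 in uninduced cells at 12 h, against 10.38, 10.41 and 11.03 at 0 h, a fall of 1.98 (SE 0.10, adjusted p = 3.46e-05), and WRKY6, known from phosphate starvation and senescence, and WRKY47 fell by 0.71 (SE 0.08) and 0.70 (SE 0.09), 3 of 7 WRKY genes. BZIP53, known to induce amino acid breakdown genes under energy shortage, read 8.93, 8.97 and 9.76 in uninduced cells at 12 h, against 10.11, 10.08 and 10.87 at 0 h, a fall of 1.13 (SE 0.08, adjusted p = 8.64e-05). Of 25 bZIP factors, 5 were called higher and 7 lower, and 1 and 10 after quantile normalization. With any 1 array left out, 2 to 3 of the bZIP factors were called higher. Of 67 MADS-box factors, 11 were called higher and 5 lower, smaller shares than the 22.3% and 19.3% over all genes. With centring on all probe sets the MADS-box counts were 8 and 39. Without 0 h replicate 1, 3 were called lower. AGL96 read 7.14, 7.0 and 7.21 in uninduced cells at 12 h, against 5.20, 5.42 and 5.42 at 0 h, a rise of 1.77 (SE 0.10), AGL18 rose by 1.14 (SE 0.09), and AGL42 fell by 1.22 (SE 0.12). In 45 of these genes both means were under the background rows' median.

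Secreted peptide genes changed in single members. CLE40, a peptide known to restrain the root stem cell niche, read 5.95, 5.96 and 5.99 in uninduced cells at 12 h, against 4.47, 3.54 and 3.61 at 0 h, a rise of 2.09 (SE 0.25, adjusted p = 0.00064) from under the background rows' median, and CLE20 rose by 1.08 (SE 0.10). CLE44, which acts on vascular stem cells, read 9.56, 9.52 and 10.25 in uninduced cells at 12 h, against 11.55, 11.48 and 11.81 at 0 h and fell by 1.84 (SE 0.13). Over 16 CLE genes 3 were called higher and 3 lower, near the 22.3% and 19.3% over all genes, and 2 and 9 with centring on all probe sets. RALFL22 and RALFL34, of the peptides that alter extracellular pH and growth, rose by 1.94 (SE 0.20) and 0.97 (SE 0.11) from under the background rows' median, 2 of 18, though centring on all probe sets called 13 lower. The defensin-like LCR and SCRL peptides, known mostly from reproductive tissue, lay mostly near background, with 0 of 80 called higher and 1 lower.

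The few measured markers of other plant cell types lay mostly under background in both groups. Most of the markers sought were not matched to a measured gene, and endodermis and meristems had 1 each. The 11 measured markers of root hairs, xylem, phloem, endodermis, stomata and meristems had mean log2 signals of 1.97 to 4.81 at 12 h and 1.90 to 4.73 at 0 h, and 9 of them lay under the background rows' median in both groups. None was called by limma, 0 of the 11 had an unadjusted p under 0.05, and their changes ran from -0.26 to 0.21. Their summed log2 signal was 32.4 to 36.7 at 12 h and 32.7 to 36.6 at 0 h. No marker of the line Alex itself was given in the sources used here.

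**Figure D4:**
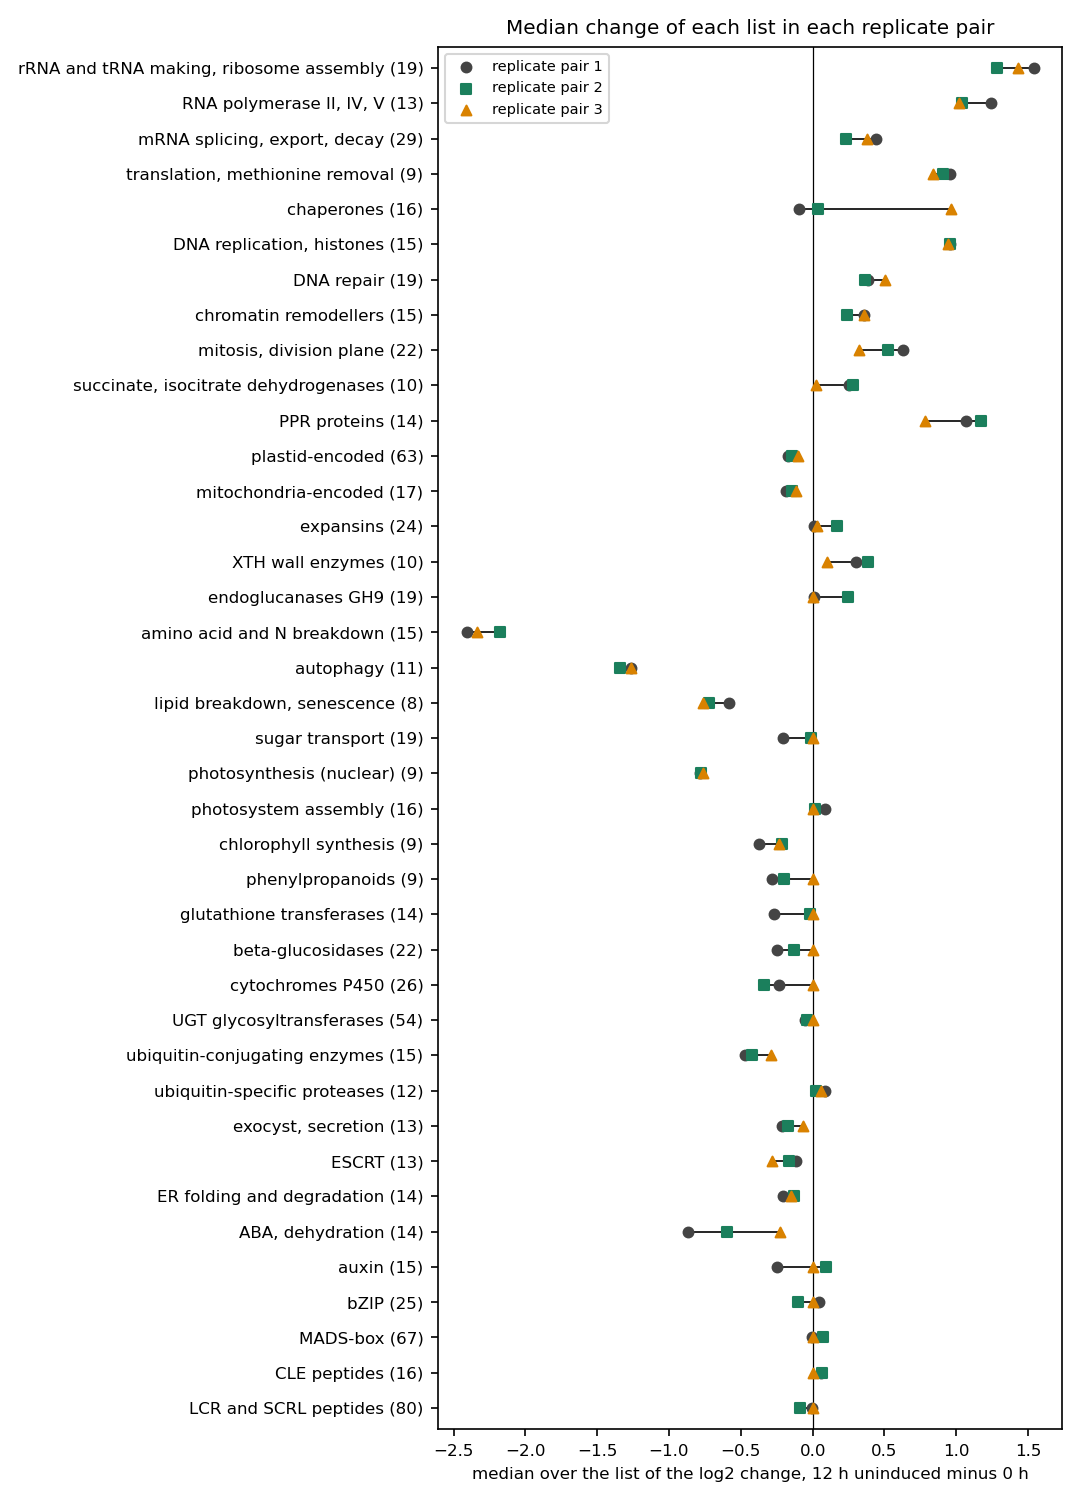
Median log2 change (12 h uninduced minus 0 h) of each of 39 lists in each replicate pair, with pair 1 as circles, pair 2 as squares and pair 3 as triangles joined by a line, and the number of genes in brackets. The 3 pairs lie close together for most lists. Pair 3 stands apart for chaperones, where the medians were -0.10, 0.04 and 0.96, and for abscisic acid and dehydration genes, where they were -0.87, -0.60 and -0.23. In many lists with medians near 0 the pair 3 median is 0, as for cytochromes P450 with -0.24, -0.34 and 0. The replicate 3 arrays held many equal values, so a pair 3 median of 0 says little on agreement among pairs.

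The 30 largest rises among called genes without overlap ran from 3.54 to 5.99, and 4 of these genes had a symbol, namely NDB4, EXPA15, EXPA9 and GH9C2. In 14 of the 30 the 0 h mean was under the background rows' median. The 30 largest falls ran from 4.83 to 7.04 in size, and 3 had a symbol, namely GSTF3, CCOAMT and PPDK. Over all genes, 1805 of 16550 had a symbol. In 12 of the 30 largest falls the 12 h mean was under the background rows' median. The extremes without annotation were AT4G03292, with 11.53, 11.34 and 11.47 in uninduced cells at 12 h, against 5.35, 5.51 and 5.52 at 0 h, and AT5G56100, with 2.1, 2.05 and 2.66 in uninduced cells at 12 h, against 9.34, 9.13 and 9.37 at 0 h. AT5G37670 had the highest adjusted p among the 30 falls. It read 3.85, 3.65 and 3.49 in uninduced cells at 12 h, against 10.58, 10.89 and 4.6 at 0 h (-5.03, SE 1.26, adjusted p = 0.0169), and the 0 h array of replicate 3 lacked the high level of the other replicates, as for HSA32. AT5G37670 was not called with 1 array left out where that array was 12 h uninduced replicate 1 or 2, or 0 h replicate 1 or 2, and its change was -6.91 to -4.03 and its adjusted p 0.000122 to 0.0745 over all 9 such fits.

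**Figure D5:**
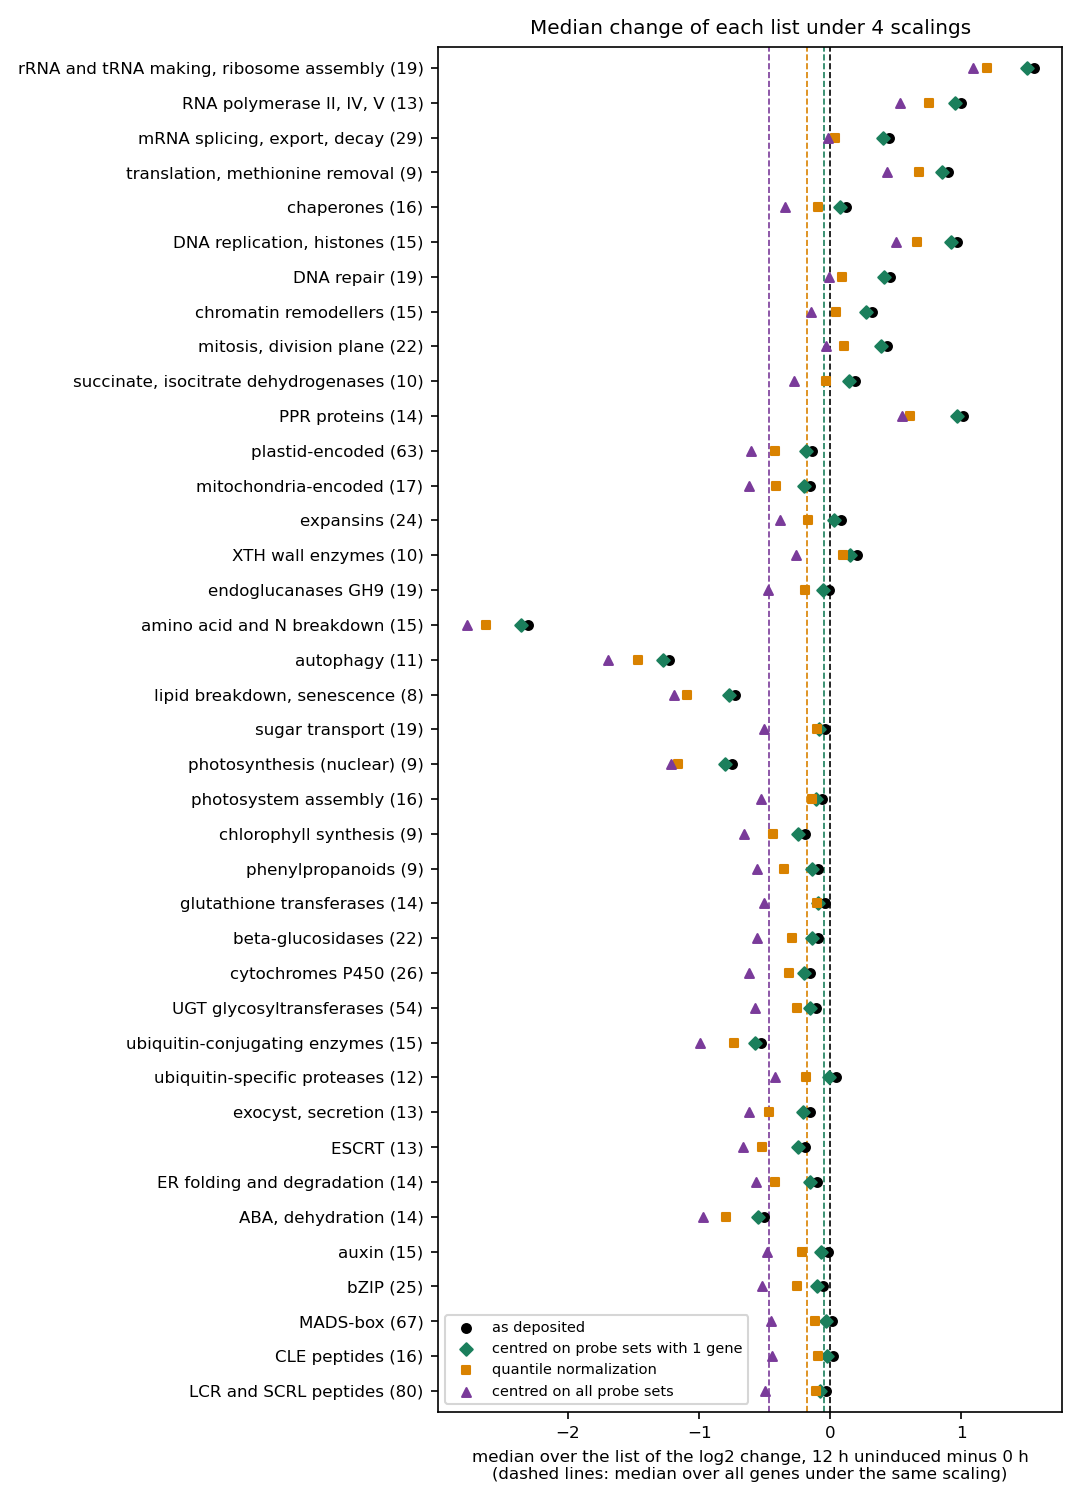
Median log2 change (12 h uninduced minus 0 h) of 39 lists as deposited (circles), centred on probe sets with 1 gene (diamonds), quantile normalized (squares) and centred on all probe sets (triangles), with dashed lines at the median over all genes under the same scaling. The dashed lines stand at 0.00, -0.05, -0.18 and -0.47, and most lists keep their side of the dashed line of the same colour, whereas many medians near 0 as deposited are below 0 once arrays are centred on all probe sets.

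Few genes were called between induced and uninduced cells at 12 h. Against uninduced cells at 12 h, 7 of 16550 genes were called higher in induced cells (0.0423%) and 0 lower by limma. At an unadjusted p under 0.05, 346 genes were higher and 384 lower.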

How the data were processed

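Transcript levels were measured on 9 Affymetrix arrays of Arabidopsis thaliana suspension cells, 3 per group. The authors deposited log2 signals per probe set, and the submitters' processing notes name Affymetrix Expression Console 1.3 as the software. How probes were summarised and arrays normalized is not given in the sources used here. Of 38506 deposited rows, 38310 had a value on every array and were tested, and 196 rows without one were left out. Genes were named from the platform annotation, which gave 1 gene for 16722 probe sets, several for 759 and none for 20829, and 16574 of the first were found in the RefSeq gene table. A gene was described by its probe set of highest mean over the 9 arrays. Array number limits the precision.

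The values were used as deposited. With limma 3.58.1 in R 4.3.3 a linear model of group and replicate number used all 9 arrays and was tested on simulated data, and uninduced cells at 12 h were contrasted with cells at 0 h. Tests were two-sided, with Benjamini-Hochberg adjustment over all 38310 probe sets and a threshold of 0.05. The prior had 2.01 and the residual 4 degrees of freedom. Summaries and plots were made with pandas 2.3.3 and matplotlib 3.10.9. The block follows the replicate numbers in the titles. Deviations from the group means were correlated between arrays of 1 number in different groups. For replicate 3, r was 0.445 to 0.616, and for replicates 1 and 2 it was 0.173 to 0.383. Between unlike numbers, r was 0.156 to 0.277 among replicates 1 and 2 and below 0 where replicate 3 took part. The ranges for replicates 1 and 2 overlap, so the block mostly sets replicate 3 apart.

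The comparison and the 131 gene lists were chosen with earlier results of these data known. A set of 92 lists had 50 wrong members taken out, and 39 lists were added from gene names in the annotation. No list was given a test. The naming rule took, from called genes without overlap, the 30 that rose most and the 30 that fell most, in each list the 6 genes of smallest p and up to 2 called against the majority, and a few anchor genes. It gave 409 genes, of which 189 are named with values, picked after their values were seen. A further 2, 3xHMG-box1 and LSM3B, lie outside the rule and were also chosen after their values were seen. Alternatives covered scaling, the block, the arrays in the fit, array weights, the variance prior, dim probe sets, equal profiles, the threshold and each array left out.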

Additional observations from a re-analysis of the deposited data

Results flagged for a closer look

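LHW, which the inducible construct carries, differed between induced and uninduced cells in its change since 0 h. It read 10.72, 11.05 and 11.24 in induced cells at 12 h, 8.72, 8.60 and 8.14 in uninduced cells at 12 h and 8.60, 8.71 and 8.22 at 0 h (log2 signal). LHW in induced cells at 12 h exceeded that in uninduced cells at 12 h by 2.52 on the log2 scale (SE 0.21, adjusted p = 0.0420 by limma). The 0 h level cancels in this comparison, so it equals the difference between the 2 changes from 0 h.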

How the results depend on the processing

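The counts of probe sets with 1 gene, 3721 called higher and 3224 called lower, stayed within 1.5 times under every alternative except scaling and the fold minimum. Centring on all probe sets gave 2250 higher and 9539 lower, quantile normalization 2634 and 5357, and a 2-fold minimum 1832 and 1552. Without the replicate block, 2721 were higher and 2279 lower. Leaving out single arrays gave 3129 to 4056 higher and 2723 to 3561 lower. The median change, -0.00029 as deposited, was -0.18 with quantile normalization, -0.47 with centring on all probe sets, -0.048 with centring on probe sets with 1 gene and 0.039 without the dimmest 25% of probe sets, and -0.0072 to 0.013 with single arrays left out. Of 354 called genes that the naming rule picks, printed or not, 316 were called with every array left out in turn and 38 were not. Of the 189 called genes in the text the numbers were 178 and 11. The replicate block made calls that the fit without it did not make in 55 of the 354 genes and in 16 of the 189, namely 3xHMG-box1, ACLA-2, ATG8G, BIP1, EIN3, EXPA4, IDH-V, INO80, MAP1B, MED32, NRPE3B, RAD4, SDH2-2, SGA2, UGLYAH and WRKY6, with adjusted p of 0.0561 to 0.345 without it. Quantile normalization turned ACLA-2 to -0.019, and centring on all probe sets turned ACLA-2 to -0.050, ATG8G to -0.013 and UGLYAH to -0.10. Of the 354 genes, 2 and 10 changed sign under these scalings. LHW, not called, ran from -0.19 to 0.13 with single arrays left out. Where no gene of a list was called in a direction by limma, 0 to 1 had an unadjusted p under 0.05 in it. The causes of these changes were not tested. Signal near background limits the size of changes that begin or end there.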
